A study of Homo sapiens with 16 samples.

Results

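The peaks described here are all those on chromosome 13 in 5 deposited ChIP-seq peak lists, for the Integrator subunit INTS13 and the chromatin protein HDGF in the human embryonic kidney line HEK293T. They were chosen by chromosome alone and numbered 35295 of 327678 peaks on the assembled chromosomes. HDGF control held 11474 of them, HDGF starvation 6123, INTS13 control 7198, INTS13 after HDGF depletion 7596 and INTS13 starvation 2904. The stated question was whether starvation, or a move or loss of HDGF, goes with a change in where INTS13 sits on chromatin. Control groups were wild-type cells given a control depletion. Starved groups were wild-type cells kept for 24 h in medium without glucose. The HDGF-depleted group was treated for 72 h with siPOOLs, pools of small interfering RNAs against HDGF. Each of the 5 groups had 2 labelled replicates but only 1 deposited list, which leaves no replicate error, and differences between lists could not be tested. Intervals are exact (Clopper-Pearson) 95% binomial intervals, which cover counting error only. INTS13 was precipitated with a Bethyl Laboratories antibody in control and HDGF-depleted cells and with a Proteintech antibody in starved cells, so antibody and starvation cannot be told apart for INTS13. The starved groups carry no depletion label, so starvation and lack of a control depletion cannot be told apart for either protein.

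Integrator is a complex that binds RNA polymerase II and cleaves nascent RNA at small nuclear RNA genes, enhancers and paused protein-coding genes, and INTS13 is one of its subunits outside the catalytic core. HDGF binds chromatin through a PWWP domain, a module that recognises methylated histone tails, mainly over the bodies of active genes. Chromosome 13 is acrocentric. Its short arm carries ribosomal RNA and satellite repeats, and its long arm is gene-poor, with broad gene deserts in the middle.

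Most chromosome 13 peaks lay far from genes, in a single stretch of the long arm. The sequences that stand out are therefore those of the few peaks at promoters. A promoter here is the RefSeq sequence (GRCh38.p14, the assembly of the hg38 build) from 250 bases before an annotated start, and 30 bases after the start are printed. Capitals mark CACGTG, which reads the same on both strands and is called an E-box. LAMP1 encodes an abundant lysosomal membrane protein, and its promoter (chr13:113296989-113297268, plus strand) lay under the strongest INTS13 peak at any chromosome 13 gene start. RCBTB1 encodes a protein with RCC1 repeats and a BTB domain, and its promoter (chr13:49585529-49585808, minus strand) also lay under an INTS13 peak away from the dense stretch. FNDC3A (chr13:49110067-49110346, plus strand) is shown because it holds the same motif without a peak. COMMD6, which encodes a small protein of the COMM family, is shown as a promoter with a peak in all 5 lists and no CACGTG (chr13:75537812-75538091, minus strand).
LAMP1: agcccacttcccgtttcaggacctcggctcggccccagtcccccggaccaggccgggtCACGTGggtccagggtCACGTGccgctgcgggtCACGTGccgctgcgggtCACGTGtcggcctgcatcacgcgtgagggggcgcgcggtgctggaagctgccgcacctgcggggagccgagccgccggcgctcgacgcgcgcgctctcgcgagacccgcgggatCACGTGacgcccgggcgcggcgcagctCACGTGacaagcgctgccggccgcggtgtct
RCBTB1: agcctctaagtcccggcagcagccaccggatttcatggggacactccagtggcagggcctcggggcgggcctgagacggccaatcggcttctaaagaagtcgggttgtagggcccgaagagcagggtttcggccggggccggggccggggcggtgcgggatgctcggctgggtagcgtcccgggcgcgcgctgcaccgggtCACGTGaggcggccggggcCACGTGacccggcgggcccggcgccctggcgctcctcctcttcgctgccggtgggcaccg
FNDC3A: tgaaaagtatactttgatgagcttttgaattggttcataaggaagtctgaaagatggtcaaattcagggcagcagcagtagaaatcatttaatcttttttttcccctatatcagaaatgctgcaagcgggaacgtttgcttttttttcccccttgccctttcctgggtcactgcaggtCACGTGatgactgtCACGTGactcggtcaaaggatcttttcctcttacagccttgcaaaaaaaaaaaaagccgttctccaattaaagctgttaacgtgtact
COMMD6: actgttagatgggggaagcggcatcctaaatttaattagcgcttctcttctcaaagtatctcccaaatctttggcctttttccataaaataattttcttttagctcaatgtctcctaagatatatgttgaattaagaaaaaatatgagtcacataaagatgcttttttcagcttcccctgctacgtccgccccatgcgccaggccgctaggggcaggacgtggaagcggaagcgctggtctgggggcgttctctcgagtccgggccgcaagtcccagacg

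Chromosome 13 took a far larger part of every list than of the genes. It held 10.8% of HDGF control peaks (95% interval 10.6 to 10.9) and 8.99% (8.77 to 9.20) of HDGF starvation peaks. In the INTS13 lists it held 23.0% (22.6 to 23.5) in control, 7.17% (7.01 to 7.32) after HDGF depletion and 18.6% (18.0 to 19.2) in starvation. It carries 1.68% of protein-coding genes (336 of 20035) and 3.35% of the 1 Mb bins that hold a gene of any kind or a peak (99 of 2952). Among 24 chromosomes it ranked 1 in peaks per gene in all 5 lists. In peaks per Mb it ranked 3, 4, 1, 4 and 1 in the order HDGF control, HDGF starvation, INTS13 control, INTS13 after HDGF depletion and INTS13 starvation. Its gene density, 3.39 protein-coding genes per Mb, was the 2nd lowest.

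**Figure D1:**
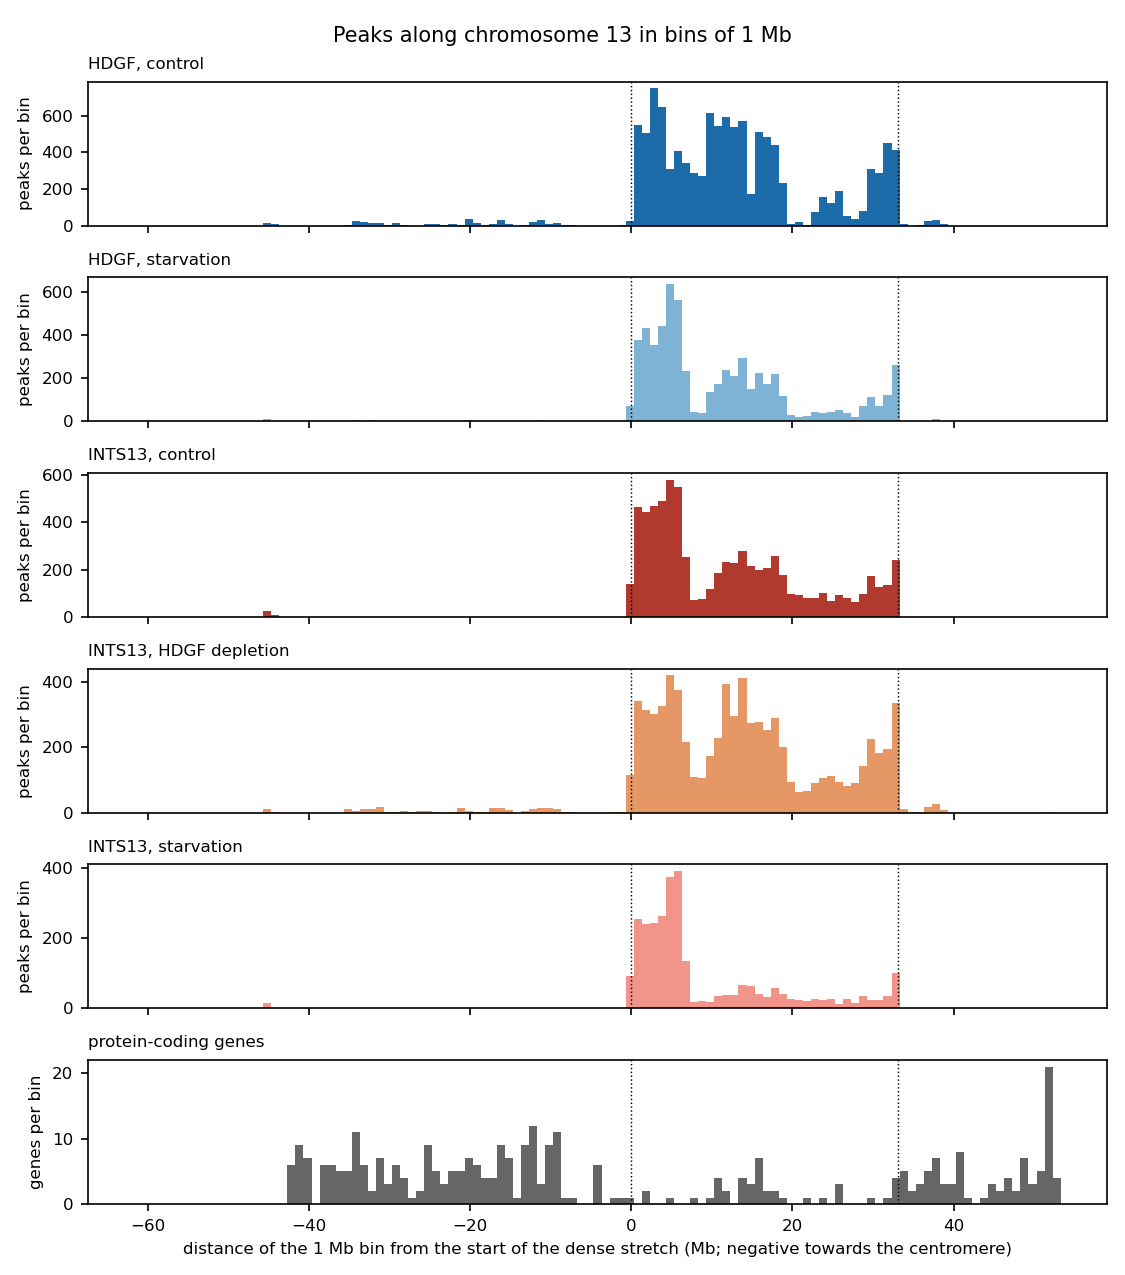
Peaks per 1 Mb bin along chromosome 13 in each list, and protein-coding genes per bin below, by distance in Mb from the start of the dense stretch (dotted lines mark its ends, 33.1 Mb apart). In all 5 lists nearly all peaks stand between the dotted lines, where genes are few. The long-arm flanks hold more genes, with at most 7.67 peaks per Mb.

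Nearly all of these peaks fell in a single stretch of 33.1 Mb, from 61.7 to 94.8 Mb. It held 96.1% (95.8 to 96.5) of the chromosome 13 peaks of HDGF control and 98.9% (98.6 to 99.1) of those of HDGF starvation. The INTS13 lists had 99.5% (99.3 to 99.6), 96.1% (95.7 to 96.5) and 99.4% (99.0 to 99.6) of theirs there, in control, depleted and starved cells. Only 41 of the 336 genes reach into this stretch. Its density was 333 peaks per Mb in HDGF control, 183 in HDGF starvation, 216 in INTS13 control, 221 after HDGF depletion and 87.2 in INTS13 starvation. Over the rest of the genome the same lists had a mean of 32.8, 21.3, 8.25, 33.8 and 4.37 per Mb. Dense bins were not confined to chromosome 13, which held 15, 8, 17, 5 and 9 of the 50 fullest 1 Mb bins of the genome. Chromosome 1 held 28.1, 26.7, 41.1, 29.7 and 35.2% of the lists.

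Peak density changed abruptly at both ends of the stretch. In the 500 kb before 61.7 Mb no list had a peak. The next 500 kb held 47 peaks in HDGF control, 115 in HDGF starvation, 230 in INTS13 control, 198 after HDGF depletion and 146 in INTS13 starvation. The summit of the first peak lay at 61742123, 61744563, 61745612, 61743243 and 61744560 in the 5 lists. At the far end, the 500 kb before 94.8 Mb held 325, 227, 197, 271 and 96 peaks in the same order, and the next 500 kb held 6, 1, 1, 8 and 0. The last summit before the sparse flank lay at 94829207, 94825661, 94831150, 94835031 and, in INTS13 starvation, 94713330. HDGF control rose in steps, with 94.0 peaks per Mb from 61.7 to 62.2 Mb and 638 in the next segment, and with a doubled segmentation penalty its edge lay at 62.1 Mb. The near ends of the lists thus lay within the same 500 kb.

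Steps in density inside the stretch were also shared. A segmentation of peak counts in 100 kb bins placed edges near 68.4 Mb in 5 lists and near 71.4, 80.4 and 94.3 Mb in 4 lists each. With the first 18 Mb and the flanks these edges divide the chromosome into 8 stretches. They are numbered from the start of the chromosome in the plot of peak density by stretch. All peaks of stretch 1, the first 18 Mb, lay between 16 and 18 Mb. Stretch 3, from 61.7 to 68.4 Mb, holds 3 genes and took 29.9% of the chromosome's peaks in HDGF control and 50.3% in HDGF starvation. In the INTS13 lists it took 46.4% in control, 30.9% after HDGF depletion and 68.2% in starvation. HDGF control peaks covered 77.7% of its sequence, with a widest peak of 53155 bp, and the other lists covered 35.2, 30.5, 19.4 and 21.8%. Stretch 5, from 71.4 to 80.4 Mb with 26 genes, took 39.2% of HDGF control peaks but 13.6% of INTS13 starvation peaks. In stretch 6, from 80.4 to 94.3 Mb, the lists differed locally. HDGF control had 10, 18 and 4 peaks in the 3 bins from 81 to 84 Mb, where INTS13 control had 99, 92 and 81.

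**Figure D2:**
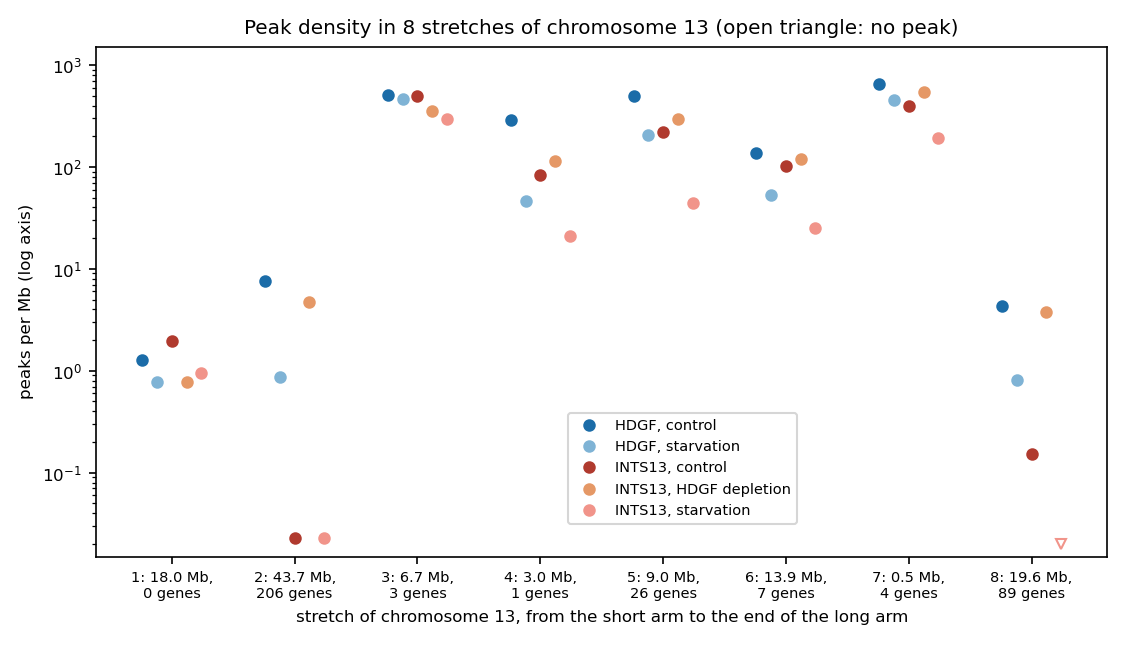
Peaks per Mb (log axis) in 8 stretches of chromosome 13, from the first 18 Mb (1) to the end of the long arm (8). Each list has one colour, and the length and number of genes of each stretch are given. Stretch 3 held 511, 460, 498, 350 and 296 peaks per Mb in the 5 lists, while stretches 2 and 8, with 206 and 89 genes, held at most 7.67.

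Both flanks on the long arm, which hold most genes of the chromosome, had fewer peaks per Mb than the mean over the rest of the genome in all 5 lists. In INTS13 control and INTS13 starvation they had almost none. The genome's median bin, however, held 6, 1, 0, 7 and 0 peaks in the 5 lists, and the flanks were nearer to it than to the mean. HDGF control had 7.67 per Mb before and 4.35 after the dense stretch. In INTS13 control and INTS13 starvation 60.5 and 67.0% of the genome's bins had no peak. The 43.7 Mb from 18 to 61.7 Mb hold 206 genes and had 335 HDGF control peaks, 38 HDGF starvation peaks and 206 INTS13 peaks after HDGF depletion, but a single peak in INTS13 control and in INTS13 starvation. Beyond 94.8 Mb, with 89 genes, the counts were 85, 16, 3, 74 and 0. No list had a peak from 18 to 26 Mb, which holds 39 genes, or from 101 to 113 Mb, which holds another 39. In all, 26 of the 99 usable bins were without a peak in any list, 26.3% against 18.0% over all chromosomes. Within the gene-poor stretch the 5 bins with most peaks lay between 62 and 68 Mb in HDGF starvation, INTS13 control and INTS13 starvation. HDGF control also had 616 peaks in the bin from 71 Mb, 594 in that from 73 Mb and 571 in that from 75 Mb. After HDGF depletion INTS13 had 393 and 413 peaks in the last 2 of these bins. Across the 99 bins, counts of the different lists went together, with Pearson coefficients from 0.634 (HDGF control with INTS13 starvation) to 0.980 (HDGF starvation with INTS13 control). They ran against gene number, with Spearman coefficients from −0.51 to −0.21. Bins share the same libraries and their neighbours' sequence, so these coefficients are descriptions only.

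The background behind the folds was the same everywhere in a list. Each fold had a single p-value, so no local background entered it, and folds on chromosome 13 were not corrected for the amount of DNA there. In unscaled reads the background came to 6.69 in HDGF control, 9.84 in HDGF starvation, 6.40 in INTS13 control, 4.20 after HDGF depletion and 15.2 in INTS13 starvation. The weakest deposited summit held 16, 24, 17, 12 and 40 unscaled reads. In the starvation lists the p-values fitted scaled counts, with a background of 7.41 in both and weakest summits of 18.1 (HDGF) and 19.4 (INTS13). Their fitted scales were 0.753 and 0.486, and those of the other lists were 1.00. A peak missing from a list may lie just below its threshold. List length did not follow the background across the 5 lists, since HDGF control and INTS13 control had nearly the same background and 106674 and 31233 peaks. On chromosome 13 the median fold was 2.99, 2.90, 3.24, 3.46 and 3.01, against 2.86, 2.90, 3.11, 3.27 and 2.95 elsewhere. Strong peaks (−log10 q from 5 upwards) made up 23.0% of HDGF control peaks on chromosome 13 and 8.84% elsewhere, and 28.4% against 14.0% in INTS13 control. After HDGF depletion it was 19.8% against 6.14%, in HDGF starvation 13.4% against 8.49% and in INTS13 starvation 17.1% against 13.9%. Medians were thus close to those elsewhere, and strong peaks made up a larger share on chromosome 13 in all 5 lists.

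The copy number of chromosome 13 in these HEK293T cells, a line with an abnormal chromosome number, was not measured here. Its part in the density was not tested, but its possible size can be computed. Dividing chromosome 13 folds by 1.5 and keeping those at or above the lowest fold of the list left 3348 of 11474 peaks in HDGF control, 1042 of 6123 in HDGF starvation and 2042 of 7198 in INTS13 control. It left 2851 of 7596 after HDGF depletion and 321 of 2904 in INTS13 starvation. The chromosome would then hold 3.40, 1.65, 7.83, 2.82 and 2.46% of the lists, at most 3.40% in 4 of them and above that in INTS13 control. The same division left a smaller part of the peaks on other chromosomes, 13.2, 11.1, 14.0, 16.3 and 8.83%, against 29.2, 17.0, 28.4, 37.5 and 11.1% on chromosome 13. Within the dense stretch the density would be 99.9, 31.0, 60.6, 85.3 and 9.27 per Mb, still above the rest of the genome in all 5 lists. With division by 2 it would be 10.4, 3.08, 4.86, 11.8 and 1.21 per Mb, below the rest of the genome in all 5.

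**Figure D3:**
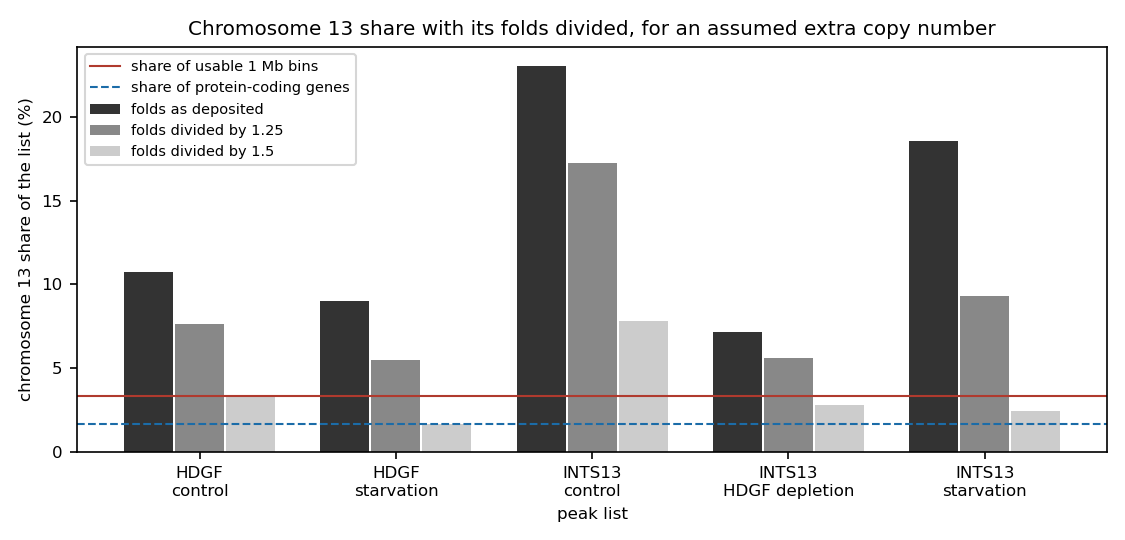
Share of each peak list on chromosome 13 (%, bars from 0) with folds as deposited and with its folds reduced by 20% and divided by 1.5. The lines mark its 3.35% share of usable bins and 1.68% share of protein-coding genes. With division by 1.5, INTS13 control stays at 7.83% and the other lists fall to between 1.65 and 3.40%.

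Peaks on chromosome 13 were seldom at gene starts. A summit within 1 kb of the start of a protein-coding gene was found for 0.436% (0.324 to 0.574) of HDGF control peaks and 0.866% (0.649 to 1.13) of HDGF starvation peaks, against 3.40% and 6.74% on the other chromosomes. For INTS13 the shares were 0.417% (0.281 to 0.595) in control, 0.698% (0.523 to 0.912) after HDGF depletion and 0.826% (0.530 to 1.23) in starvation, against 3.37, 3.70 and 9.53% elsewhere. Peaks outside genes made up 70.0, 70.8, 78.1, 72.9 and 80.1% of the lists on chromosome 13 and 24.3, 30.2, 51.1, 43.4 and 47.7% elsewhere. They lay a median of 301 to 493 kb from the nearest gene. In the dense stretch, where genes cover 21.0% of the sequence, 27.9% of HDGF control peaks and 21.6% of INTS13 control peaks lay inside a gene. The start windows cover 0.319% of it and held 0.391% (INTS13 control) to 0.809% (HDGF starvation) of the peaks there.

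Counted by gene, 32 of the 336 genes had a start peak in HDGF control, 34 in HDGF starvation, 24 in INTS13 control, 37 after HDGF depletion and 23 in INTS13 starvation. For the 37 genes without an annotated start, a summit near either end counted. Over all 20035 genes the lists marked 13.3, 16.2, 3.92, 15.4 and 6.09%, so chromosome 13 was below the background in both HDGF lists and after HDGF depletion, above it in INTS13 control and close to it in INTS13 starvation. The dense stretch held most of them, with 28, 31, 22, 28 and 22 of its 41 genes marked. Outside it 4, 3, 2, 9 and 1 of 295 genes were marked. No list marked 283 genes, and 9 genes were marked in all 5. The genome-wide share marked in all 5 is not given here. A broad peak can cover a start although its summit lies farther away, which added 8 genes in HDGF control and 0 to 2 in the other lists.

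The genes marked in all 5 lists, all inside the dense stretch, included COMMD6, UCHL3, SLAIN1, EDNRB, OBI1, NDFIP2, DCT and TGDS. At COMMD6 the start printed above had peaks of fold 3.38 in HDGF control, 3.43 in HDGF starvation, 4.73 in INTS13 control, 5.77 after HDGF depletion and 3.76 in INTS13 starvation. The INTS13 summits lay 111, 57 and 51 bases after this start and the HDGF summits 840 and 379 bases before it. UCHL3, a deubiquitinase gene that begins next to another COMMD6 start, had folds of 3.51, 3.07, 3.24, 3.27 and 2.89. NDFIP2 encodes an adaptor of Nedd4-type ubiquitin ligases and had 2.60, 3.25, 3.51, 4.81 and 3.36. EDNRB, the endothelin receptor type B gene, had 2.86, 3.34, 3.38, 4.04 and 2.66. Folds are comparable within a list only, so these values set no order between lists.

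**Figure D4:**
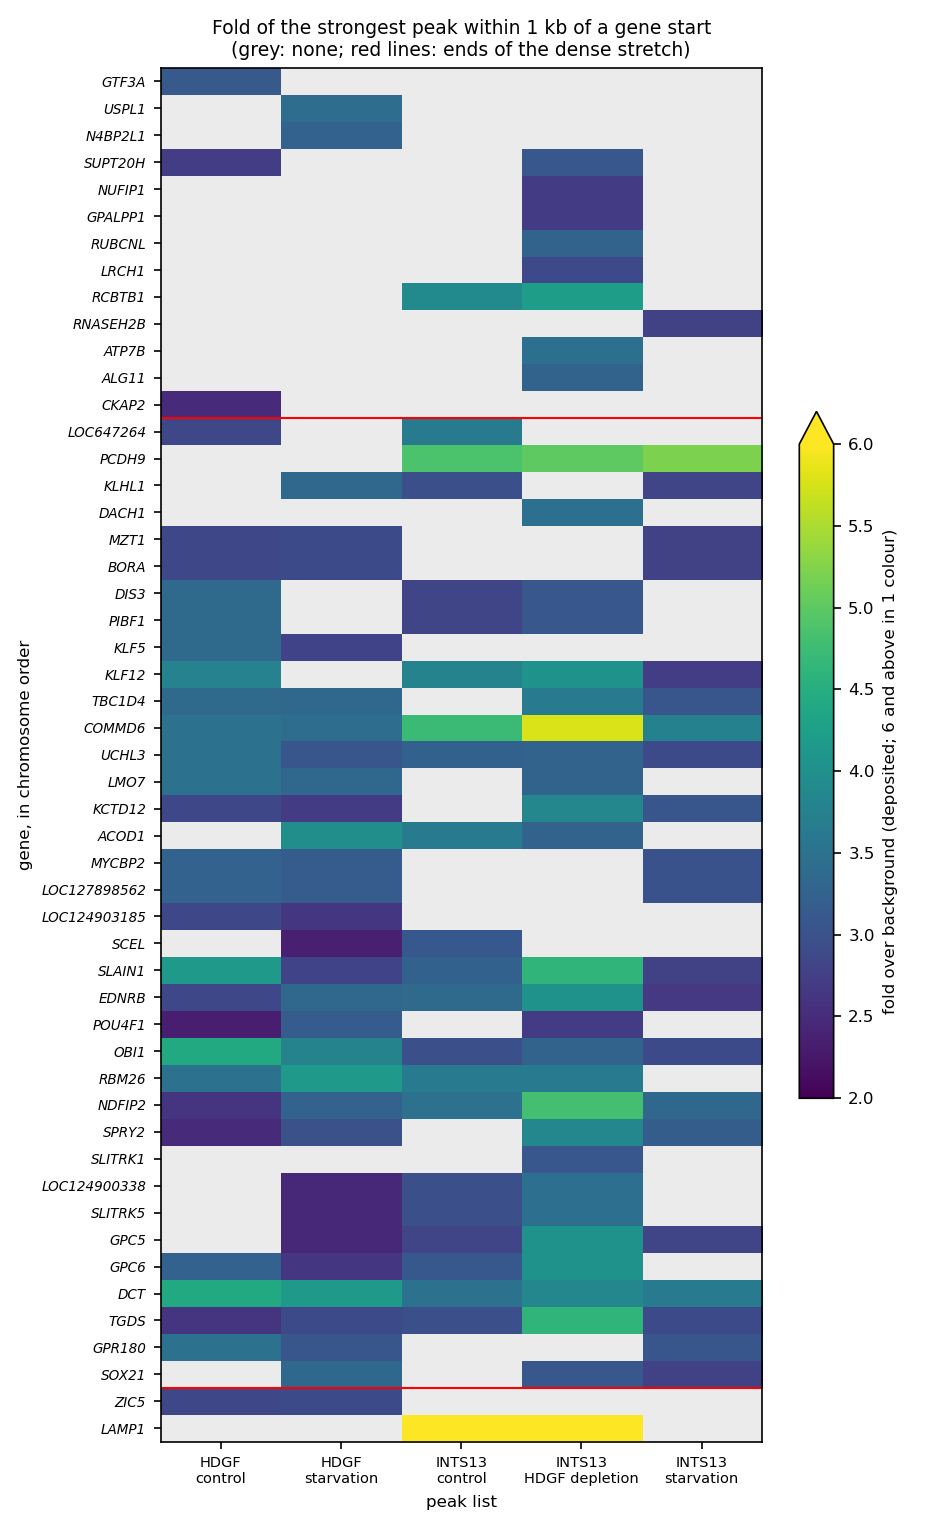
Fold over background (colour) of the strongest peak within 1 kb of a gene start, for chromosome 13 genes marked in at least 1 list (2 are not drawn), in chromosome order, one column per list. Either end counts where no start is annotated. The genes between the red lines lie in the dense stretch, and LAMP1, at the bottom, is marked in 2 INTS13 lists and no HDGF list.

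LAMP1 carried the strongest start peak of the chromosome and stood alone on the distal long arm. Its INTS13 control peak (chr13:113296933-113297268) had a fold of 9.46 and a −log10 q of 41.4, rank 1 among the 841 start peaks of that list on all chromosomes. After HDGF depletion the peak (chr13:113296831-113297298) had a fold of 9.04, rank 3 of 3691. No other peak of any list lay within 12.7 Mb. Neither HDGF list nor INTS13 starvation had a peak at LAMP1. In the printed promoter 4 CACGTG begin 192, 176, 159 and 142 bases before the start, and 2 more begin 28 bases and 1 base before it. The control summit lay 159 bases before the start, on the third match, and the summit after depletion lay 213 bases before it, upstream of all 6. LAMP1 was the only 1 of 22199 protein-coding promoters (300 bases, 250 before and 50 after the start) with 6 matches, and none had more.

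Only 4 INTS13 control peaks lay on the long arm outside the dense stretch, and 2 of them were at promoters with more than 1 CACGTG. The RCBTB1 peak (chr13:49585481-49585731) had a fold of 3.92 in control and 4.23 after HDGF depletion, with summits 51 and 40 bases before the start. Its matches begin 49 and 30 bases before the start. The other 2 peaks, at chr13:94831048-94831296 and chr13:100582439-100582721, had folds of 3.51 and 3.24 and were at no gene start. The first of these is the peak given above as the last before the sparse flank. It counts as outside only because it lies just past the edge set at 94.8 Mb. Of 434 chromosome 13 promoters 4 held at least 2 matches, and the FNDC3A and F10-AS2 promoters had no peak in any list. These promoters were singled out after their values were seen. Over all protein-coding promoters 8.34% (7.98 to 8.71) held at least 1 CACGTG, against 16.1% (13.6 to 18.8) of the 785 with an INTS13 control summit within 1 kb, 11.0% after HDGF depletion and 11.3% in INTS13 starvation. In the HDGF lists the shares were 8.82% in control and 9.82% in starvation. On chromosome 13 only 2 of the 26 promoters with an INTS13 control summit held a match, LAMP1 and RCBTB1, and none of the 36 with an HDGF control summit did. A match is a run of letters, not a measured binding site.

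Among genes of transcription and RNA processing, 10 of 27 had a start peak in some list, 7 of the 27 being in the dense stretch. Over all chromosome 13 genes 53 of 336 (15.8%) had one, 38 of the 41 in the dense stretch among them, and genome-wide the share was 31.5%. Of the 27 genes, 8 were marked in HDGF control, 5 in HDGF starvation, 3 in INTS13 control, 7 after HDGF depletion and 2 in INTS13 starvation. Of all 336 genes the same lists marked 32, 34, 24, 37 and 23. RBM26, which encodes an RNA-binding protein of nuclear RNA decay, had folds of 3.51 and 4.15 in the HDGF lists, 3.65 in INTS13 control and 3.66 after HDGF depletion, with no peak in INTS13 starvation. DIS3, the catalytic subunit of the RNA exosome, shared a peak with its neighbour PIBF1, of fold 3.38 in HDGF control, 2.84 in INTS13 control and 3.08 after depletion. KLF12, a repressor of the Krüppel-like family, had 3.77 in HDGF control, 3.78, 4.04 and 2.72 in the INTS13 lists and none in HDGF starvation. The KLF12 summit of HDGF control lay at 74306319. Those of INTS13 lay at 74133021 in control, 74132949 after depletion and 74135183 in starvation. The HDGF and INTS13 folds of KLF12 are thus from different annotated starts and do not show both proteins at the same site. INTS6, the Integrator subunit gene of this chromosome, had no start peak in any list. GTF3A, which encodes transcription factor IIIA, was marked only in HDGF control, with a fold of 3.12.

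Of the genes of the neuronal cell surface, 5 of 10 had a start peak, against 53 of 336 on the chromosome, and 6 of the 10 are in the dense stretch, where 38 of 41 genes had one. PCDH9, a protocadherin gene, had INTS13 folds of 4.86 in control, 5.00 after HDGF depletion and 5.21 in starvation. Its start was also covered by an HDGF control peak of 13673 bp and an HDGF starvation peak of 6266 bp, with summits 12.1 and 2.09 kb away. GPC5 and GPC6 encode glypicans, and SLITRK1 and SLITRK5 transmembrane proteins of synapses. GPC5 had folds of 2.45 in HDGF starvation and 2.84, 4.04 and 2.84 in the INTS13 lists, and GPC6 had 3.25, 2.63, 3.11 and 4.04 in all lists but INTS13 starvation. Of the other lists, cell cycle and genome stability had 2 marked genes of 18 (BORA and RNASEH2B), and lysosome, secretion and translation had 1 of 14 (LAMP1). Growth factor and insulin signalling had 1 of 11 (SPRY2, an inhibitor of receptor tyrosine kinase signalling). The 4 blood clotting genes had none. RB1 and BRCA2 had no start peak.

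Small RNA genes gave a further locus. MIR17HG (91347687 to 91354577) hosts 6 microRNA hairpins within 787 bp, the miR-17 to miR-92a cluster, known for its growth-promoting targets. A single HDGF control peak of 6257 bp, with a fold of 5.20, covered all 6 hairpins. In HDGF starvation a peak of 1209 bp and fold 4.15 had its summit inside the miR-17 hairpin. The INTS13 control peak (fold 3.51) and the peak after HDGF depletion (fold 3.27) had their summits inside the miR-20a hairpin. INTS13 starvation had no peak over the hairpins. Closer to the host's start it had a peak of fold 5.96, the highest of its peaks between 80.4 and 94.3 Mb, where INTS13 control had 1 of fold 3.65 and the list after depletion 1 of fold 3.66. Over the host's start lay a further INTS13 starvation peak, of fold 3.36, and a peak after HDGF depletion, of fold 3.46. Within 1 kb of that start the highest folds were 3.79 in HDGF starvation, 3.85 after HDGF depletion and 3.36 in INTS13 starvation. HDGF control and INTS13 control had no summit there. The 2 hairpins that held summits give microRNAs with the same seed (bases 2 to 8, in capitals, from RefSeq GRCh38.p14), printed to identify them.
hsa-miR-17-5p: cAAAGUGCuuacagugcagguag
hsa-miR-20a-5p: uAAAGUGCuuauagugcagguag

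The shared part of a list differed between stretches of the chromosome. For HDGF, 31.0% (30.1 to 31.8) of the 11474 control peaks overlapped a starvation peak by at least 1 base, against 21% over all chromosomes, and 75.4% (74.3 to 76.5) of the 6123 starvation peaks overlapped a control peak, against 34.9%. Of HDGF control peaks 59.1% were shared in stretch 3, 25.1% in stretch 5, 8.47% in stretch 6, 53.8% in stretch 7 and 0.597% (2 of 335) in stretch 2. Stretch 2 held only 38 HDGF starvation peaks, which limits its share. Shared HDGF control peaks were wider and stronger, with a median of 882 bp and fold 3.38, than the others, with 365 bp and 2.86. A wider peak meets the rule of 1 shared base more easily, so the difference in width can follow from the rule. At gene starts, 25 HDGF genes were kept in starvation (78.1% of 32, against 47.6% genome-wide), 7 were lost and 9 gained (21.9% against 52.4%, and 26.5% of 34 against 61.1%). Of these 32 control genes, 28 lie in the dense stretch, where HDGF starvation marked 75.6% of all 41 genes. The kept share was thus close to the share marked in that stretch. The kept genes with the strongest control peaks were OBI1 (fold 4.42 in control and 3.79 in starvation), DCT (4.42 and 4.15), SLAIN1 (4.16 and 2.81), COMMD6 (3.51 and 3.43), UCHL3 and LMO7 (3.51 and 3.34). The strongest peaks of the 2 lists were at different starts or ends of the gene at OBI1, DCT, SLAIN1 and COMMD6, 43.8, 68.8, 42.9 and 10.5 kb apart, so these pairs of folds are not of 1 site. Both lists nevertheless marked a common start at 23 of the 25 kept genes, against 91.8% genome-wide. Besides KLF12, DIS3, PIBF1 and GTF3A, the genes marked in HDGF control and not in HDGF starvation included LOC647264 (2.86) and SUPT20H, which encodes a subunit of the SAGA coactivator (2.73). Those marked in starvation only were led by ACOD1, which makes the metabolite itaconate (3.97), USPL1, a SUMO protease gene (3.43), KLHL1 (3.34) and SOX21, a neural transcription factor gene (3.34). USPL1 has no annotated start, so both of its ends were used. Its summit (30660154) lay near the end at 30660766 and may not be at the start.

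For INTS13, 48.9% (47.8 to 50.1) of the 7198 control peaks overlapped a peak after HDGF depletion, against 50.3% over all chromosomes, so chromosome 13 did not stand out from the background in this direction. In the other direction 47.0% (45.9 to 48.1) of the 7596 peaks after depletion overlapped a control peak, against 14.4%. The shared part of INTS13 control peaks was 60.7% in stretch 3, 45.2% in stretch 5, 26.7% in stretch 6 and 67.5% in stretch 7. After HDGF depletion 205 of the 206 INTS13 peaks in stretch 2 lay where control cells had none. INTS13 control had only 1 peak in that stretch, so nearly all had to be unshared. At gene starts 21 genes were kept (87.5% of 24, against 76.3%), 3 were lost (12.5% against 23.7%) and 16 were marked after depletion only (43.2% of 37, against 80.6%). Of the 24 control genes, 22 lie in the dense stretch, where the list after depletion marked 68.3% of all 41 genes. Both lists marked a common start at 20 of the 21 kept genes, against 97.7%. LAMP1, PCDH9, COMMD6, RCBTB1, KLF12 and ACOD1 (3.65 and 3.27) led the kept genes. The lost genes were LOC647264 (3.65), SCEL (3.11) and KLHL1 (2.97). KCTD12 and SPRY2 (both 3.85), TBC1D4, a regulator of glucose transporter traffic (3.66), ATP7B, the copper transporter gene, and DACH1 (both 3.46) were among the genes marked after depletion only. TBC1D4 has no annotated start, and this summit (75284139) lay near its end at 75283503. The list after depletion has the lowest background and holds 105994 peaks against 31233 in control, and the part of list length in these additions was not tested.

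Under starvation, 29.9% (28.8 to 31.0) of INTS13 control peaks overlapped an INTS13 starvation peak, against 22.2% over all chromosomes, and 69.1% (67.4 to 70.8) of the 2904 starvation peaks overlapped a control peak, against 40.6%. In stretch 3 the shared part of control peaks was 52.2%, and in stretches 4, 5, 6 and 7 it was 8.87, 9.32, 9.06 and 29.9%. Of the start genes 13 were kept (54.2% of 24, against 54%), 11 lost (45.8% against 46%) and 10 marked in starvation only (43.5% of 23, against 65.3%). In the dense stretch, which holds 22 of the 24, INTS13 starvation marked 53.7% of all 41 genes, close to the kept share. A common start was marked at 12 of the 13 kept genes, against 96.2%. PCDH9, COMMD6, KLF12, NDFIP2 and DCT (3.51 and 3.65) were among the kept genes. LAMP1 and RCBTB1 led the lost ones, followed by LOC647264, ACOD1, RBM26 and SCEL. SPRY2 (3.18), TBC1D4 and KCTD12 (both 3.07), MYCBP2 with LOC127898562 at the same peak (3.01) and GPR180 (3.07) led those marked in starvation only. The TBC1D4 summit in INTS13 starvation (75481990) lay near the gene's other end, at 75482169.

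**Figure D5:**
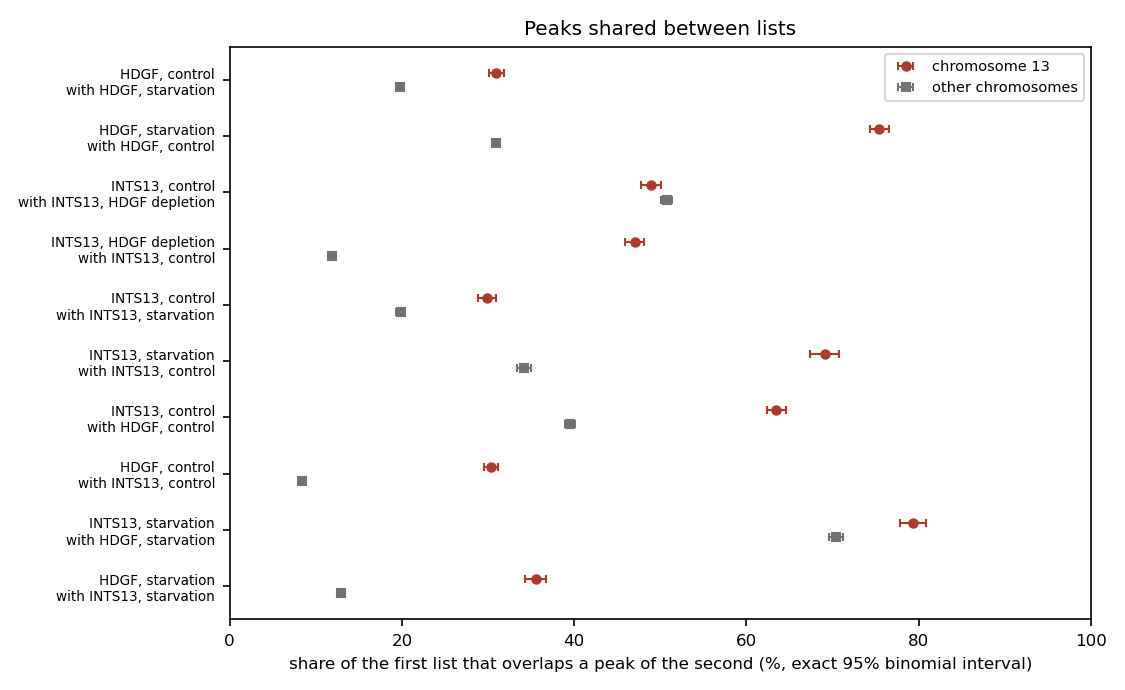
Share of each list's peaks that overlap a peak of a second list by at least 1 base, with exact 95% intervals, on chromosome 13 (circles) and on the other chromosomes (squares). Chromosome 13 is higher in 9 of the 10 pairings, and INTS13 control with INTS13 after HDGF depletion, at 48.9% against 50.8%, is the exception.

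Peaks of the 2 proteins overlapped by at least 1 base more often on chromosome 13 than elsewhere. In control cells 63.5% (62.3 to 64.6) of INTS13 peaks overlapped an HDGF peak, against 45% over all chromosomes, and 30.3% (29.5 to 31.2) of HDGF peaks overlapped an INTS13 peak, against 10.8%. The INTS13 share was 96.3% in stretch 3, 48.2% in stretch 5, 13.2% in stretch 6 and 73.6% in stretch 7. HDGF control peaks cover 77.7, 31.4, 5.45 and 48.8% of these stretches. Wide coverage makes an overlap of 1 base likely, and its part in the shares was not tested. None of the 335 HDGF control peaks in stretch 2 overlapped an INTS13 control peak, but INTS13 control had only 1 peak there, so almost no overlap was possible. In starved cells 79.3% (77.8 to 80.8) of INTS13 peaks overlapped an HDGF peak, against 72%, and 35.5% (34.3 to 36.7) of HDGF peaks overlapped an INTS13 peak, against 15%. Across stretches 3 to 7 this INTS13 share ran from 59.8% in stretch 6 to 85.4% in stretch 3. By summits within 250 bp the shares of INTS13 peaks were 24.4% in control and 48.2% in starved cells. The same shares over all chromosomes are not given here.

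Merging all chromosome 13 peaks gave 15873 intervals, of which 949 (5.98%) held a peak of every list. The same share over all chromosomes is not given here, so this count cannot be set against a background. They held 14.6% of HDGF control peaks and 65.5% of INTS13 starvation peaks. Of the 949, 776 lay in stretch 3, 96 in stretch 5, 46 in stretch 7 and 11 on the proximal 18 Mb. Stretches 2 and 8, where INTS13 starvation had 1 and 0 peaks, had none. The 4 strongest lay at chr13:16122819-16123813, chr13:16135697-16136215, chr13:17170381-17170756 and chr13:16776558-16776909, between 2003 and 3050 kb from the nearest protein-coding gene. Their sequence was not analysed here, so repeats, which are common near the centromere, were not checked. The first had folds of 13.8 in HDGF control, 14.6 in HDGF starvation, 21.1 in INTS13 control, 12.1 after HDGF depletion and 15.4 in INTS13 starvation. Its summits in the 5 lists lay within 31 bp. At the second, with folds of 11.5, 15.3, 17.8, 13.5 and 14.5, they lay within 14 bp. Together with the third these were the 3 strongest peaks outside genes in 4 of the lists, and in HDGF control chr13:16776558-16776909 was the strongest with 15.4. The fifth interval, chr13:62127666-62174843, lies in stretch 3 and spans 47178 bp. It held 1 HDGF control peak and 3, 11, 20 and 5 peaks of the other lists, with highest folds of 8.33, 10.3, 9.05, 10.0 and 9.14.

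Long non-coding RNA genes and pseudogenes also carried start peaks on chromosome 13. Of 627 long non-coding RNA genes, 118 had a summit within 1 kb of a start (of either end where no start was annotated) in HDGF control, 94 in HDGF starvation, 96 in INTS13 control, 108 after HDGF depletion and 51 in INTS13 starvation, and 17 had one in all 5 lists. These shares, from 8.13 to 18.8%, compare with 8.36, 9.1, 2.9, 10.7 and 2.93% of all such genes genome-wide. The dense stretch holds 176 of the 627, and 118 of the 460 pseudogenes, against 41 of the 336 protein-coding genes. Marked genes of these kinds inside and outside that stretch are not given here, so the part of position in their shares was not tested. The genes named here were chosen after their values were seen. LINC00376 had folds of 3.77, 3.25, 4.19, 3.85 and 3.47 in that order, and NDFIP2-AS1, antisense to NDFIP2, had 2.60, 3.25, 3.51, 4.81 and 3.36, the same peaks as NDFIP2. Of 460 pseudogenes, 68, 52, 68, 68 and 30 were marked in the 5 lists (14.8, 11.3, 14.8, 14.8 and 6.52%, against 6.55, 4.05, 2.78, 9.58 and 1.33% genome-wide), and 16 in all 5. SQSTM1P1, a pseudogene of the autophagy receptor SQSTM1, had 4.68, 4.15, 4.19, 4.43 and 3.88. Reads of a pseudogene and its parent gene can be alike, so these assignments are uncertain. Genome-wide shares of long non-coding RNA genes and pseudogenes marked in all 5 lists are not given here.

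Among 4 transfer RNA genes of the chromosome, TRF-GAA1-5, a phenylalanine transfer RNA gene at 94549650 to 94549722, was marked in all 5 lists, with folds of 2.86, 4.15, 3.38, 3.85 and 3.36. It lies next to the distal annotated start of DCT. The genome-wide share of transfer RNA genes with a peak is not given here. The single small nuclear RNA gene had no peak in any list.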

How the data were processed

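The series has 16 ChIP-seq samples of HEK293T cells in 8 groups of 2, sequenced from both ends at 150 bp, as the labels state. The 6 input samples were not analysed here. The authors used hg38 with MACS2, Picard, Bowtie, Trimmomatic and FastQC, per the submitters' processing notes. How replicates and inputs entered the calls, and all versions and settings except a 0.05 in the deposited peak names, were not given in the sources used here. In the lists, each deposited peak has an integer score, a fold ratio over background at its summit, a −log10 p and a −log10 q, and a summit offset, all values of the authors. Folds served to rank and filter peaks inside each list and were not compared across lists.

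Peaks on chromosomes 1 to 22, X and Y were kept. The background in reads was solved from the deposited pairs of fold and p-value under a Poisson distribution. It was divided by a scale, taken from the step between folds, to give unscaled reads. Peaks were counted by summit in bins of 1 Mb. Edges came from a Poisson segmentation of 100 kb bins with a penalty of 50, joined within 300 kb and used where at least 4 lists had them. Genes and promoters were from RefSeq tables (GRCh38.p14), matched by gene ID. Starts were annotated for 299 of the 336 protein-coding genes, and both ends were used for the other 37. A further 2 genes placed on unlocalised scaffolds were left out. Python 3.11.15, numpy 2.4.6, pandas 2.3.3, scipy 1.17.1 and matplotlib 3.10.9 were used, and the overlap, binning and segmentation functions were checked on simulated data.

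The members and gene lists were chosen with earlier results of these data known. Genes were named by a rule: in each of 3 treated-against-control comparisons up to 6 kept, 6 lost and 6 gained genes by −log10 q, members of 7 gene lists with a peak, the 5 strongest intervals of all 5 lists with 3 strongest peaks outside genes per list, and the 5 fullest bins per list. Genes marked in all 5 lists, and the promoters compared for CACGTG, were added after values were seen. A kept gene is marked in the control and the treated list, a lost gene in the control list and a gained gene in the treated list alone. Of the genes this rule names, 2 are not reported here.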

Additional observations from a re-analysis of the deposited data

How the results depend on the processing

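No paired analysis was possible because each group has a single deposited list, and leaving out replicates in turn was not possible either. Precision is limited by depth: the background was between 4.20 and 15.2 unscaled reads per list, and between 4.20 and 7.41 as scaled for the p-values. A peak absent from a list can be a weak one below its threshold. Values are given in the order HDGF control, HDGF starvation, INTS13 control, INTS13 after HDGF depletion and INTS13 starvation, and the cause of a change was not tested.

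The share of the list on chromosome 13 was 23.9, 13.5, 37.8, 19.9 and 21.9% for −log10 q from 5 upwards, and 30.0, 20.6, 30.4, 30.5 and 19.5% at 10. With equal numbers of the strongest peaks it was 21.4, 12.8, 26.5 and 17.7% in the first 4 lists. As a share of covered bases it was 17.8, 10.6, 27.0, 8.05 and 22.6%. With chromosome 13 folds reduced by 20% it was 7.66, 5.51, 17.2, 5.61 and 9.33%, and with division by 1.5 it was 3.40, 1.65, 7.83, 2.82 and 2.46%.

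The median share of chromosome 13 peaks in the densest 10 Mb was 55.9% with bins of 1 Mb, 58.2% with 500 kb, 48.1% with 5 Mb, 83.2% at a −log10 q of at least 5 and 67.4% by covered bases. A segmentation penalty of 100, chosen after seeing the data, gave 5 shared edges in place of 6. The median share at gene starts, 0.698%, became 0.342% with a window of 500 bp, 1.54% with 2500 bp, 0.487% at a −log10 q of at least 5 and 3.67% with all annotated genes.

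For HDGF control peaks with starvation peaks, 31.0% became 7.31% when 50% of both peaks had to overlap, 14.7% with summits within 250 bp, 18.3% at a −log10 q of at least 5 and 35.8% with equal numbers of peaks. For INTS13 control peaks with those after HDGF depletion, 48.9% became 26.6, 35.6, 33.4 and 32.2% in the same order. For INTS13 control peaks with starvation peaks, 29.9% became 13.8, 17.4, 22.5 and 40.6%. For INTS13 with HDGF peaks, 63.5% in control cells became 10.9, 24.4, 62.0 and 51.0%, and 79.3% in starved cells became 37.4, 48.2, 72.2 and 49.9%. Without the dense stretch, an alternative chosen after seeing the data, the shares were 3.84% (HDGF in starvation), 41.0% (INTS13 after depletion) and 51.3% (INTS13 with HDGF in control cells). Leaving out the last 5 Mb changed none of the 5 shares beyond its interval.

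The 949 intervals of all 5 lists became 155 at a −log10 q of at least 5 and 116 with summits within 250 bp. With a window of 500 bp the kept genes numbered 13 in place of 25 (HDGF in starvation), 10 in place of 21 (INTS13 after depletion) and 5 in place of 13 (INTS13 in starvation). With 2500 bp the last 2 became 33 and 21.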
